A study of Mus musculus with 6 samples.

Results

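The 9 genes described here are transcription factors that mark projection neurons of the cerebral cortex: Tbr1, Bcl11b, Fezf2, Neurod2, Neurod6, Emx1, Emx2, Cux1 and Cux2. They were listed by symbol for their known roles, with earlier results of these data known, and all 9 were found among the 32285 mouse genes of the deposited matrices. Their RNA and the accessibility of their promoters were read in neurons grouped by the transmitter genes they express.

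The data are single-nucleus Multiome profiles, in which RNA and open chromatin (ATAC) are read from the same nucleus, of frozen brain tissue from C57BL/6J mice. Plasmids had been delivered into the embryonic ganglionic eminences, the ventral forebrain zone that gives rise to striatal neurons and cortical interneurons, by in utero electroporation. Both genotypes carried a piggyBac transposon with V5-tagged Foxr2 behind the CAG promoter, which is active in most cell types, with GFP and the luciferase Akaluc. Foxr2 p53LOF additionally received a CRISPR guide with Cas9 against p53. In Foxr2 alone no p53 guide was given. The study collected mice when neurologic signs appeared, described the p53LOF lesions as striatal tumors and the Foxr2 alone lesions as non-proliferative and lying in cortex or striatum. The ages of the animals were not given in the sources used here, and a library holds electroporated and host cells together. Foxr2 p53LOF replicate 1 and Foxr2 alone replicate 1 carry every count below, while only the peak list and barcodes of Foxr2 alone replicate 2 were used.

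Foxr2 p53LOF held 10379 barcodes with 96929539 UMIs (unique molecules of RNA) and Foxr2 alone held 10096 barcodes with 59719847 UMIs. After filtering, 8413 and 8327 nuclei were kept, of which 2263 (26.9%) and 4248 (51.0%) were neuron-like. With 1 library per genotype there were no replicates, so no test was made, and a difference between genotypes is a difference between these libraries. All intervals are at 95% and cover counting error only. The libraries shared 140 barcode sequences, of which 95 were kept in both. At least 1 UMI of a vector was read in 65.7% of Slc17a6 neurons and 64.2% of GABA neurons of Foxr2 p53LOF, against 55.0% of its immune-like nuclei. In Foxr2 alone the shares were 8.77% of Slc17a7 neurons, 9.01% of GABA neurons and 2.82% of immune-like nuclei. Most neurons of Foxr2 alone were therefore not seen to carry a vector, and the part of electroporated cells in its classes was not tested. The median depth was 9672 and 9824.5 UMIs in Slc17a6 and GABA neurons of Foxr2 p53LOF, against 2723 in its immune-like nuclei. In Foxr2 alone it was 9682 and 6443 UMIs in Slc17a7 and GABA neurons, against 1133. The vector shares were not thinned to a common depth, so neurons and immune-like nuclei cannot be ranked by them.

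Excitatory neurons of the cortex descend from dorsal progenitors that express the homeobox genes Emx1 and Emx2. As they leave the cell cycle they express the basic helix-loop-helix factors Neurod2 and Neurod6, and then factors that set layer and target: Tbr1 in neurons that project to the thalamus, Fezf2 and Bcl11b in those that project below the cerebrum, and Cux1 and Cux2 in upper layers. Several are used elsewhere too. Bcl11b is a defining factor of striatal projection neurons and of T cells, Emx2 is also found in astrocytes, and Cux1 is widely expressed. Cortical excitatory neurons use the vesicular glutamate transporter Slc17a7, whereas excitatory neurons of thalamus, hypothalamus and midbrain mainly use Slc17a6.

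Neuron subclusters were named by transmitter genes, and the 9 members were kept out of the genes that formed them. In Foxr2 alone, 1402 neurons (33.0%) were Slc17a7 neurons, 2829 (66.6%) were GABA neurons and 17 were cholinergic. Of the GABA neurons, 2414 had a striatal projection-like profile by a list of 12 markers, and 415 did not. In Foxr2 p53LOF, 1395 (61.6%) were Slc17a6 neurons, 648 (28.6%) were GABA neurons, 169 were dopamine neurons, 35 were mixed and 16 were Slc17a7 neurons. The naming rule itself makes the transporters differ between the classes. Slc17a7 stood at 369 CPM (UMIs per 1000000 UMIs of the class) in the Slc17a7 neurons of Foxr2 alone and at 1.61 CPM in the Slc17a6 neurons of Foxr2 p53LOF, and Slc17a6 stood at 13.5 and 407 CPM in the same order. The median depth was 9682 UMIs per nucleus in Slc17a7 neurons, 6443 in GABA neurons of Foxr2 alone, 9672 in Slc17a6 neurons and 9824.5 in GABA neurons of Foxr2 p53LOF. Nuclear RNA of other classes also carried neuronal transcripts in Foxr2 alone, where Slc17a7 was read at 40.6 CPM in oligodendrocyte-like and at 101.6 CPM in astrocyte-like nuclei.

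**Figure D1:**
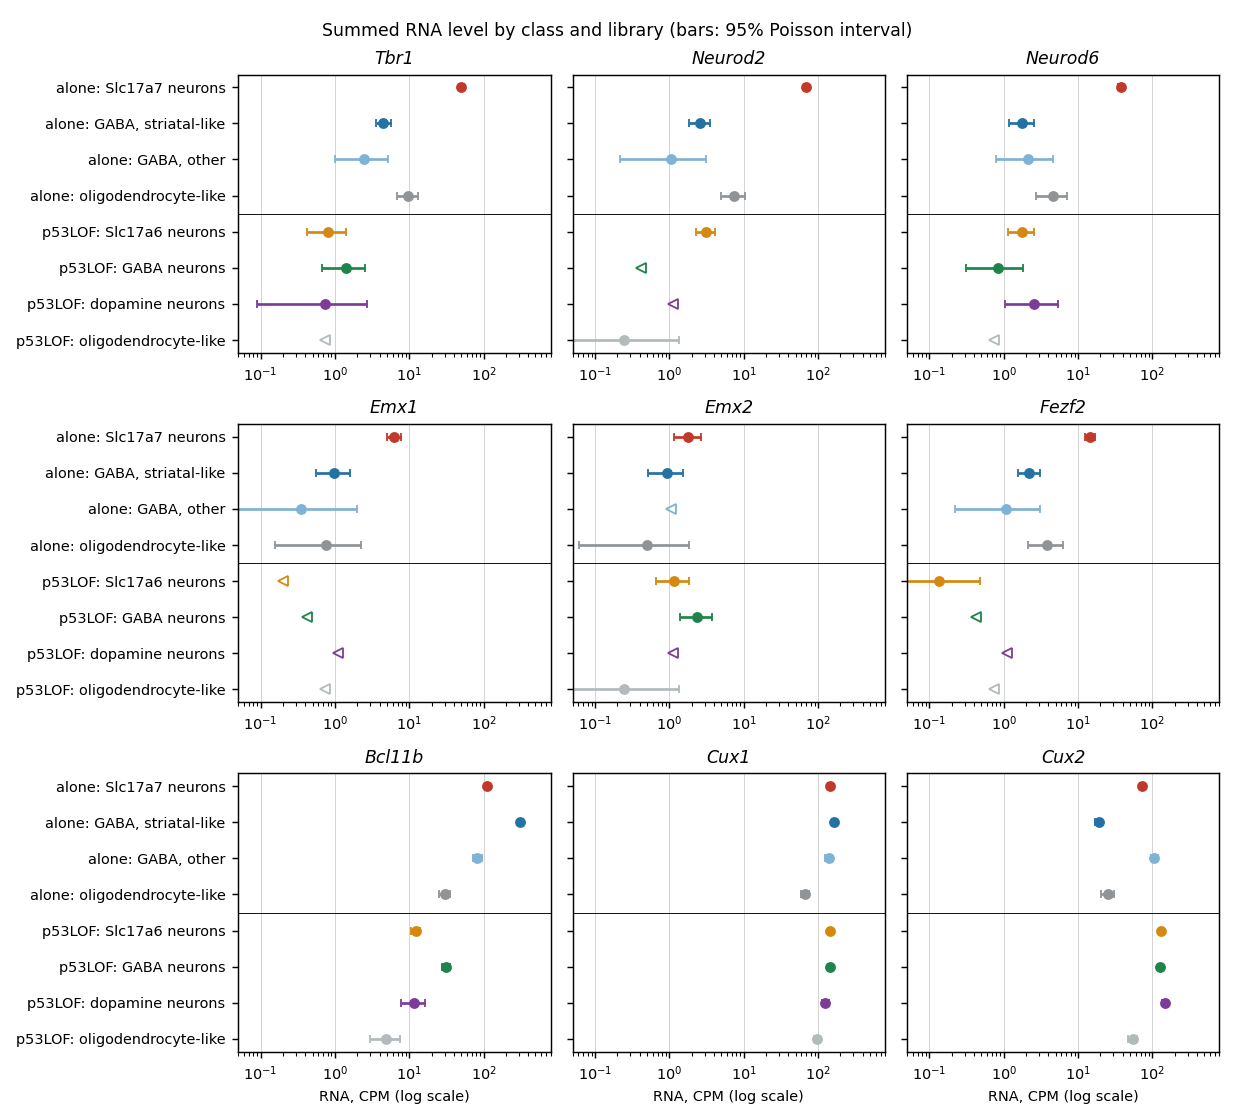
RNA level (CPM, log scale) of each of the 9 genes in neuron classes and oligodendrocyte-like nuclei of Foxr2 alone and Foxr2 p53LOF, with 95% Poisson intervals as bars and open triangles for 0 UMIs drawn at the 3-count floor. Neurod2, Neurod6, Tbr1, Fezf2 and Emx1 are highest in the Slc17a7 neurons of Foxr2 alone, Bcl11b in the striatal projection-like GABA neurons, and Cux1 varies least.

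The first comparison asked how the members differ between the Slc17a7 and the GABA neurons within Foxr2 alone. A gene was called when the ratio of its CPM was at least 2-fold and at least 20 UMIs were read over both classes. Of the 9 members, 7 were called higher in Slc17a7 neurons and 1, Bcl11b, lower. Over all 17068 genes tested, 11.0% were called higher and 10.3% lower. The median log2 ratio of the members was 2.82, against -0.05 over all genes.

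The 2 Neurod factors differed most. Neurod2 (ENSMUSG00000038255), on the minus strand at mm10 chr11:98325415-98329648, drives the maturation of postmitotic excitatory neurons. It was read as 968 UMIs in Slc17a7 neurons, 42 in striatal projection-like and 3 in other GABA neurons, 29 in oligodendrocyte-like, 27 in astrocyte-like and 7 in immune-like nuclei. Its level was 70.0 CPM (65.7 to 74.6) in Slc17a7 neurons and 2.36 CPM (1.72 to 3.16) in GABA neurons, a log2 ratio of 4.89 (4.46 to 5.35). Neurod6 (ENSMUSG00000037984), a close relative, lies on the minus strand at chr6:55677822-55681263. It stood at 37.9 CPM (34.7 to 41.3) in Slc17a7 neurons and 1.84 CPM (1.28 to 2.56) in GABA neurons, a log2 ratio of 4.37 (3.87 to 4.90). For both genes the GABA level was below that of oligodendrocyte-like nuclei, 7.37 CPM for Neurod2 and 4.57 CPM for Neurod6, which should lack them.

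The sequences upstream of these genes are shown because their promoters also differed most in accessibility between the classes, as described below. Each is the 250 bases before the RefSeq start site (GRCm38.p6), 5′ to 3′ on the strand of the gene, with capitals marking motif matches on either strand.
Neurod2, chr11:98329646-98329895: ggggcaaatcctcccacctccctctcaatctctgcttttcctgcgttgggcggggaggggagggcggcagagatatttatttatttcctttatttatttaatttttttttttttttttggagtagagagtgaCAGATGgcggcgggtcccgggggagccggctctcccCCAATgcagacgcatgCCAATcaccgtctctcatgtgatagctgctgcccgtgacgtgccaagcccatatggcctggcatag
Neurod6, chr6:55681264-55681513: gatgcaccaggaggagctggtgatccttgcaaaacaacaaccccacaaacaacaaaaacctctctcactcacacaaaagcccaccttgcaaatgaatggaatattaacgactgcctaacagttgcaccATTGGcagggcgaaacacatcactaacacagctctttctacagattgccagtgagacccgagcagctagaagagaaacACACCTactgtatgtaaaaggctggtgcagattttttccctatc
Neurod2 holds the E-box CAGATG, a form bound by basic helix-loop-helix factors, which is in 17.2% of the 32851 mouse promoters of 300 bases searched. Neurod6 holds AGGTGT, a core recognised by T-box factors and present in 13.7% of these promoters. Both sequences hold CCAAT, present in 37.4%. Such matches describe the letters only and do not show binding.

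Tbr1 (ENSMUSG00000035033, plus strand, chr2:61802930-61814114) is the T-box factor of early-born, deep-layer neurons. Its 691 UMIs in Slc17a7 neurons gave a level of 46.3 to 53.9 CPM, against 80 UMIs and 4.20 CPM (3.33 to 5.23) in GABA neurons, a log2 ratio of 3.57 (3.24 to 3.93). Among glial classes, Tbr1 was at 26.7 CPM (19.2 to 36.2) in astrocyte-like nuclei and at 9.65 CPM (6.83 to 13.2) in oligodendrocyte-like nuclei. The astrocyte-like nuclei also held 101.6 CPM of Slc17a7. How far stray RNA from neurons made up these glial values was not tested. Emx1 (ENSMUSG00000033726, plus strand, chr6:85187438-85204462), the dorsal homeobox gene that stays on in cortical excitatory neurons, was rare, with 87 UMIs in Slc17a7 and 17 in GABA neurons. Its levels were 6.30 CPM (5.04 to 7.77) and 0.893 CPM (0.520 to 1.43), a log2 ratio of 2.82 (2.06 to 3.66).

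Emx2 (ENSMUSG00000043969, plus strand, chr19:59458372-59465357) followed a different order. It was read as 25 UMIs in Slc17a7 neurons, 15 in striatal projection-like GABA neurons and 0 in other GABA neurons, but 32 UMIs in the much smaller astrocyte-like class. In Foxr2 alone its level was 20.8 CPM (14.3 to 29.4) in astrocyte-like nuclei, 1.81 CPM (1.17 to 2.67) in Slc17a7 neurons and 0.788 CPM (0.441 to 1.30) in GABA neurons. The log2 ratio between the neuron classes was 1.20 with an interval of 0.22 to 2.23, which includes differences under 2-fold.

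Fezf2 (ENSMUSG00000021743, minus strand, chr14:12342094-12348189), a zinc finger factor that selects the corticospinal fate, was read as 201 UMIs in Slc17a7 and 39 in GABA neurons. The levels were 14.5 CPM (12.6 to 16.7) and 2.05 CPM (1.46 to 2.80), a log2 ratio of 2.83 (2.33 to 3.36). Bcl11b (ENSMUSG00000048251, minus strand, chr12:107910403-108003602), which acts downstream of Fezf2 in corticospinal neurons, ran the other way. It stood at 109.7 CPM (104.2 to 115) in Slc17a7 neurons and at 276 CPM (269 to 284) in GABA neurons, a log2 ratio of -1.33 (-1.42 to -1.25).

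Within the GABA neurons, the striatal projection-like nuclei held Bcl11b at 310.0 CPM (301 to 319) and the others at 82.9 CPM (72.7 to 94.3), a log2 ratio of 1.90. Cux2 was ordered in reverse, at 19.0 CPM (16.9 to 21.2) in striatal projection-like and 106.7 CPM in other GABA neurons, a log2 ratio of -2.49. Of the 7 members tested in this contrast, 3 were called higher and 1 lower in striatal projection-like neurons, beside 13.3% and 15.7% of all genes. The calls of Fezf2 and Neurod2 rested on 3 UMIs each in the other GABA neurons, and their intervals crossed 0. The direction of Bcl11b and Cux2 against Slc17a7 neurons depended on this makeup. Set against the other GABA neurons alone, a contrast added after the data were seen, the log2 ratio of Bcl11b became 0.40 (0.20 to 0.61) and that of Cux2 -0.55 (-0.74 to -0.36), and 5 members were called higher and 0 lower, beside 10.2% and 9.71% of the 15396 genes tested.

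Cux1 (ENSMUSG00000029705, minus strand, chr5:136248135-136567490) and Cux2 (ENSMUSG00000042589, minus strand, chr5:121856366-122050102) are homeobox paralogs on the same chromosome that mark upper-layer neurons and shape their dendrites. Cux2 stood at 72.7 CPM (68.2 to 77.3) in Slc17a7 neurons and 32.0 CPM (29.5 to 34.6) in GABA neurons, a log2 ratio of 1.18 (1.04 to 1.33). Cux1 was nearly level, at 145 CPM (139 to 151) and 161 CPM (155 to 167), a log2 ratio of -0.15 (-0.23 to -0.07). Its highest level in both libraries was in immune-like nuclei, at 329 CPM (284 to 379) in Foxr2 alone and 575 CPM (557 to 594) in Foxr2 p53LOF. Cux2 was at 10.4 CPM and 9.27 CPM in these nuclei, so the paralogs had different orders across classes.

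Shares of nuclei with a UMI were compared after thinning every nucleus to 1000 UMIs. Immune-like nuclei served as a class that should lack neuronal genes, but are no background for Cux1, which was highest in them. In Foxr2 alone this kept 1401 of 1402 Slc17a7 neurons, 2812 of 2829 GABA neurons and 281 of 425 immune-like nuclei, whose median depth was 1133 UMIs. Neurod2 was found in 8.21% (6.82 to 9.77) of thinned Slc17a7 neurons, 0.249% of GABA neurons and 1.07% of immune-like nuclei. Tbr1 was found in 5.92% (4.75 to 7.29), 0.213% and 0 of 281 immune-like nuclei, for which the floor of 3 counts allows a share of up to 1.07%. Neurod6 was found in 3.50% (2.60 to 4.60), 0.0711% and 0 of these immune-like nuclei. For Bcl11b the shares were 10.1% in Slc17a7 neurons, 22.3% in GABA neurons and 4.63% in immune-like nuclei, and for Cux2 6.14%, 2.81% and 0.712%. For these 5 genes the interval in Slc17a7 neurons lay above that in immune-like nuclei. The shares of Fezf2 (1.86%), Emx1 (0.857%) and Emx2 (0.143%) could not be told from that background at this depth, and Cux1, at 11.9%, was below the immune-like share of 24.6%. Without thinning, 47.4% of Slc17a7 neurons held a Neurod2 UMI and 36.5% a Tbr1 UMI.

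**Figure D2:**
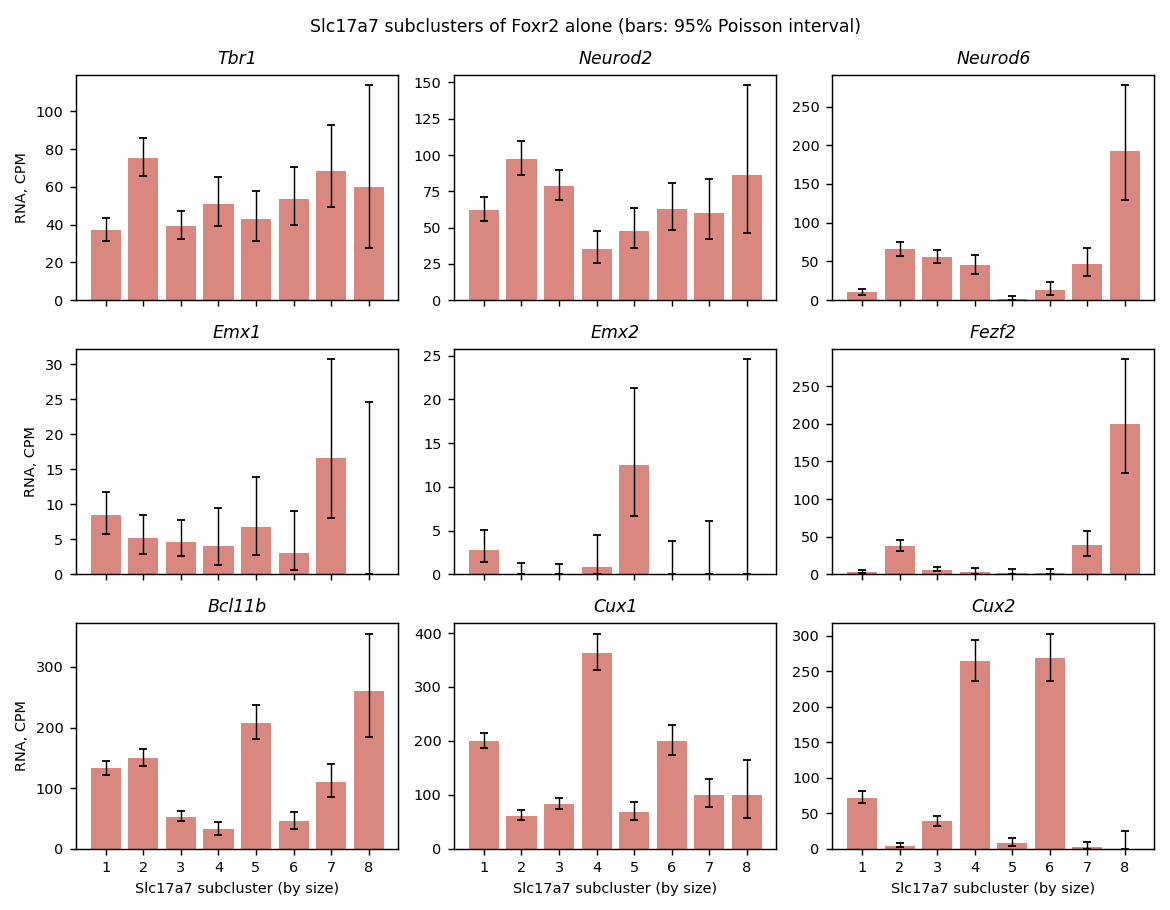
RNA level (CPM) of the 9 genes in the 8 subclusters of Slc17a7 neurons of Foxr2 alone, ordered by size from 405 to 21 nuclei. Cux2 reaches 263 and 268 CPM in subclusters 4 and 6, where Fezf2 is 3.23 and 2.06 CPM, and Fezf2 reaches 200 CPM in subcluster 8, where Cux2 has 0 UMIs.

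The Slc17a7 neurons of Foxr2 alone fell into 8 subclusters, numbered by size, in which the layer factors took separate places. Cux2 was highest in subclusters 4 (116 nuclei) and 6 (90 nuclei), at 263 CPM (236 to 294) and 268 CPM (236 to 303). Its level was 71.6 CPM in subcluster 1 and 38.7 CPM in subcluster 3, and at most 7.68 CPM in subclusters 2, 5, 7 and 8. Cux1 was likewise highest in subcluster 4, at 364 CPM (331 to 399), followed by subclusters 1 and 6, whose intervals of 187 to 215 and 173 to 230 CPM overlapped. Its lowest level was 61.1 CPM (52.5 to 70.8) in subcluster 2, so Cux1 kept a level in every subcluster where Cux2 did not.

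Fezf2 was concentrated in the subclusters low in Cux2. It stood at 200 CPM (135 to 285) in subcluster 8, which has only 21 nuclei, at 38.4 CPM (24.3 to 57.6) in subcluster 7 and at 37.3 CPM (30.6 to 45.0) in subcluster 2. The remaining subclusters lay between 1.92 and 6.33 CPM. Bcl11b was highest in subclusters 8 and 5, at 260 CPM (185 to 355) and 207 CPM (181 to 237), and lowest in subclusters 4 and 6, at 32.3 CPM (23.1 to 44.0) and 45.4 CPM (33.0 to 60.9). Subcluster 5 separated the pair of subcerebral factors, since it held Bcl11b at a high level with only 2 UMIs of Fezf2.

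Tbr1 and Neurod2 were read in every subcluster with less spread. Tbr1 ran from 36.9 CPM (31.2 to 43.5) in subcluster 1 to 75.3 CPM (65.6 to 86.0) in subcluster 2, and Neurod2 from 35.6 CPM (25.8 to 47.7) in subcluster 4 to 97.4 CPM (86.4 to 109) in subcluster 2. Neurod6, in contrast, ranged from 1 UMI and 0.960 CPM in subcluster 5 to 193 CPM (129 to 277) in subcluster 8, with 10.2 and 13.4 CPM in subclusters 1 and 6. The 2 Neurod genes thus differed in range across the same neurons. Emx2 was found almost entirely in subclusters 1 and 5, with 11 and 13 of its 25 UMIs, and its 12.5 CPM (6.64 to 21.3) in subcluster 5 was the highest neuronal value. Emx1 stayed between 3.09 and 16.7 CPM in the 7 larger subclusters, with at most 33 UMIs in any of them.

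The subclusters also differed in summed layer genes. The summed level of 15 upper-layer genes was 3443 and 3249 CPM in subclusters 4 and 6 and 761 and 823 CPM in subclusters 2 and 7, where deep-layer genes summed to 6298 and 5764 CPM. The highest upper-layer sum, 4338 CPM, was in subcluster 5, which was low in Cux2 and high in Bcl11b, so this sum and Cux2 were ordered differently. Neither list holds a member, but list genes could take part in forming the subclusters. Pearson's r between members was taken over the 7 subclusters of at least 50 nuclei, all from the same library. The values largest in size were 0.83 between Cux1 and Cux2, -0.74 between Fezf2 and Cux2, -0.76 between Bcl11b and Cux2, 0.77 between Tbr1 and Fezf2 and -0.89 between Neurod6 and Emx2. Emx2 had only 25 UMIs in these neurons, and Fezf2 and Bcl11b were at 0.29. All these r are descriptions over 7 points.

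Pairs of members were also read nucleus by nucleus after thinning 1399 Slc17a7 neurons to 3000 UMIs. Fezf2 was found in 0.966% of the 207 nuclei with a Cux2 UMI and in 5.12% of the 1192 without. Bcl11b was found in 17.9% and 27.4% of them. Cux2 was found in 24.8% of the 415 nuclei with a Cux1 UMI and in 10.6% of the 984 without. Tbr1 differed little by Cux2, at 14.0% and 15.3%. Other pairs did not follow the subclusters as closely. With and without a Fezf2 UMI, Bcl11b was found in 27.0% and 26.0%, and Tbr1 in 22.2% (12.7 to 34.5) and 14.7% (12.9 to 16.8). Neurod6 was found in 12.8% of nuclei with a Neurod2 UMI and in 10.1% of those without. Over 5 factors (Tbr1, Fezf2, Neurod2, Neurod6 and Emx1), at least 1 UMI of a single factor was found in 32.4% of the 1399 nuclei, of several in 7.51% and of none in 60.1%. Among 2651 GABA neurons of Foxr2 alone with that depth, a single factor was found in 3.02% and several in 0.0377%. In the few glial nuclei with that depth, the shares were 23.2% and 1.79% of 56 oligodendrocyte-like nuclei, and 13.6% and 1.78% of 169 astrocyte-like nuclei. A single factor was thus rare in GABA neurons but was also read in part of these few glial nuclei, which should lack these genes.

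In Foxr2 p53LOF, the same question was put to Slc17a6 against GABA neurons. Neurod2 was read as 46 UMIs in Slc17a6 neurons and 0 in GABA neurons, at least 7.38-fold higher against the floor of 3 counts. Its level of 3.09 CPM (2.26 to 4.12) was close to that in the GABA neurons of Foxr2 alone. Of these 46 UMIs, 22 fell in the largest subcluster (519 nuclei, 3.69 CPM), 15 in subcluster 4 (124 nuclei, 11.2 CPM) and 8 in subcluster 9, whose 16 nuclei also held Slc17a7 at 70.8 CPM. Neurod6 had 26 and 6 UMIs, a log2 ratio of 1.06 with an interval of -0.25 to 2.63.

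Bcl11b was lower in Slc17a6 neurons, at 12.2 CPM (10.4 to 14.1) against 31.4 CPM (27.4 to 35.8) in GABA neurons, a log2 ratio of -1.37 (-1.66 to -1.08). Among the 4 GABA subclusters it was at 104.8 CPM (84.1 to 129) in subcluster 3, with 52 nuclei, at 25.1 CPM in subcluster 1, and at 0 UMIs in subclusters 2 and 4. Emx2 had 17 UMIs in each class and a log2 ratio of -1.06 (-2.11 to 0.00). Cux1, at 144 and 147 CPM, and Cux2, at 130.4 and 128 CPM, differed by log2 ratios of -0.03 and 0.03. Tbr1 had 12 and 10 UMIs and was not called, Emx1 had 0 UMIs in both classes, and Fezf2 had 2 UMIs in Slc17a6 neurons and 0 in GABA neurons. Of the 7 members tested, 2 were called higher and 2 lower, beside 5.60% and 1.62% of the 15570 genes tested.

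Cux1 and Cux2 were read in each of these classes of Foxr2 p53LOF. Dopamine neurons held Cux2 at 148 CPM (134 to 164) and Cux1 at 126 CPM (113 to 140). Across the 7 Slc17a6 subclusters of at least 50 nuclei, Cux1 ran from 118 to 164 CPM and Cux2 from 96.9 to 187 CPM, a narrower range than across the 7 Slc17a7 subclusters of that size in Foxr2 alone. The small class of 16 Slc17a7 neurons in Foxr2 p53LOF held Neurod2 at 59.8 CPM (32.7 to 100.3, 14 UMIs), Bcl11b at 68.3 CPM (39.0 to 111) and Cux2 at 235 CPM (177 to 306). Fezf2 had 3 UMIs (12.8 CPM, 2.64 to 37.4), Tbr1 and Neurod6 had 2 each and Emx1 and Emx2 had 0 in these nuclei, too few to set against the larger class.

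Slc17a6 neurons of Foxr2 p53LOF were then set beside Slc17a7 neurons of Foxr2 alone, the excitatory classes of each library. These classes differ in transmitter gene and genotype at once, the region sampled for each library was not given in the labels, and the parts of these cannot be told apart. Of the 9 members, 6 were called lower and 0 higher in the Slc17a6 neurons, beside 21.5% and 17.8% of the 17035 genes tested. Fezf2 had 2 UMIs against 201 (log2 ratio -6.76, interval -9.81 to -4.89), Tbr1 12 against 691 (-5.96), Neurod2 46 against 968 (-4.50) and Neurod6 26 against 524 (-4.44). Emx1 had 0 UMIs against 87, at most -4.97 on the log2 scale against the floor, and Bcl11b had a log2 ratio of -3.17. Cux1 (-0.01), Cux2 (0.84) and Emx2 (-0.66, from 17 and 25 UMIs) were not called. At 3000 UMIs per nucleus, none of the 5 factors was found in 98.7% of 1391 Slc17a6 neurons.

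The GABA neurons of the 2 libraries also differed in the members. Of 8 tested, 2 were called higher and 5 lower in Foxr2 p53LOF, beside 17.3% and 27.4% of the 16519 genes tested. Cux2 was at 128 CPM against 32.0 CPM (log2 ratio 2.00) and Bcl11b at 31.4 CPM against 276 CPM (-3.14). Emx2 had 17 and 15 UMIs (1.59), Tbr1 10 and 80 (-1.59) and Neurod6 6 and 35 (-1.13, -2.67 to 0.13). Neurod2 and Fezf2 had 0 UMIs in Foxr2 p53LOF, at most -2.50 and -2.29 on the log2 scale, and Cux1 was at -0.13. In Foxr2 alone, the GABA levels of Tbr1, Fezf2, Neurod2 and Neurod6 were 4.20, 2.05, 2.36 and 1.84 CPM. Those of its oligodendrocyte-like nuclei, which should lack these genes, were higher, at 9.65, 3.81, 7.37 and 4.57 CPM. How far stray RNA made up these GABA levels was not tested. With the striatal projection-like neurons of Foxr2 alone left out, a setting added after the data were seen, 3 members could be tested, Bcl11b alone was called (lower, -1.40), and Cux2 stood at 0.26. Over the 13928 genes tested in that setting, 11.0% were called higher and 17.9% lower. No GABA neurons of Foxr2 p53LOF were striatal projection-like, so the makeup of the GABA class differed between the libraries.

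Outside neurons, Bcl11b had a T cell component in Foxr2 p53LOF. It stood at 109 CPM in the T cell-like cluster, and within the whole cluster, over both libraries, at 361 CPM in the 98 nuclei with more T cell than astrocyte markers and at 13.2 CPM in the 130 others. The astrocyte-like, oligodendrocyte-like and immune-like nuclei of each library fell in different clusters, so a shared class name does not mean like cells. A vector UMI was read in 96.7% of astrocyte-like and 94.6% of COP-like nuclei (committed oligodendrocyte precursors) of Foxr2 p53LOF, and Hmga2 and Tnc were among the leading genes of the astrocyte-like cluster. In Foxr2 alone, 20.2% of astrocyte-like nuclei held a vector UMI. Astrocyte-like nuclei held Bcl11b at 57.9 CPM (53.5 to 62.7) in Foxr2 p53LOF and at 101.6 CPM (86.3 to 119) in Foxr2 alone. Those of Foxr2 alone also held Slc17a7 at 101.6 CPM, and how far stray RNA from neurons made up their Bcl11b was not tested. Cux2 was at 54.4 CPM in the oligodendrocyte-like nuclei of Foxr2 p53LOF and at 25.4 CPM in those of Foxr2 alone. In the oligodendrocyte-like nuclei of Foxr2 p53LOF, 1 UMI of Neurod2 and 0 of Tbr1, Neurod6 and Fezf2 were read. Its astrocyte-like nuclei held 21 UMIs of Fezf2 (1.96 CPM), against 2 in its Slc17a6 neurons, and 5 UMIs of Tbr1, and its COP-like nuclei held 8 UMIs of Tbr1. Emx2 had 2 UMIs (0.187 CPM) in the astrocyte-like nuclei of Foxr2 p53LOF, against 20.8 CPM in those of Foxr2 alone.

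**Figure D3:**
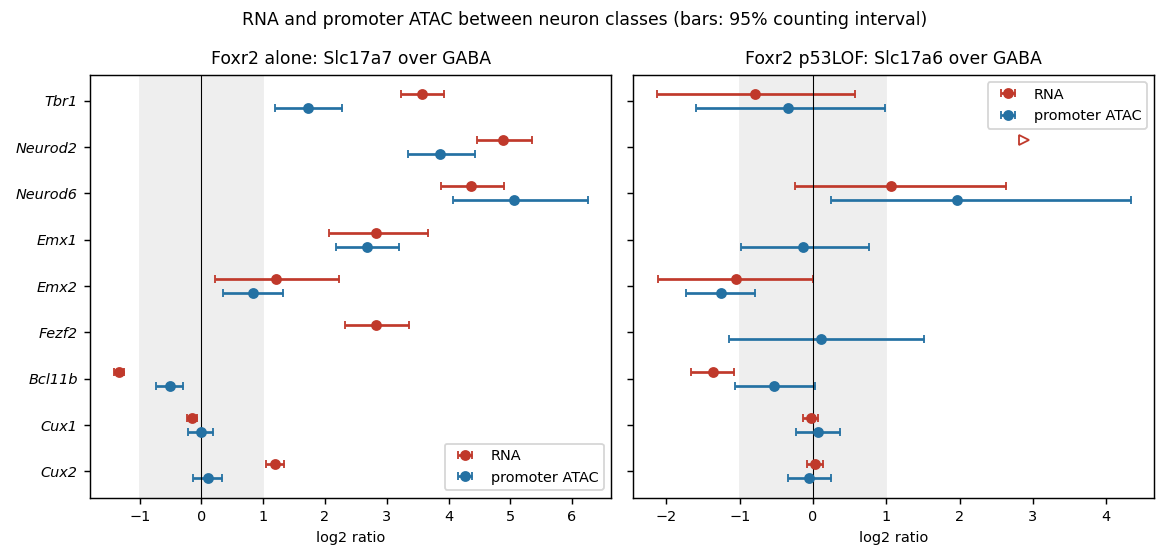
Log2 ratio of RNA (red) and promoter ATAC (blue) for each gene, Slc17a7 over GABA neurons in Foxr2 alone and Slc17a6 over GABA neurons in Foxr2 p53LOF, with 95% intervals, a grey band for less than 2-fold and an open triangle for the lower bound of Neurod2. Neurod2, Neurod6, Emx1 and Tbr1 are past 2-fold in both readouts in Foxr2 alone. The counts of Cux1 and Cux2, summed over their promoter peaks, lie near 0 in both libraries.

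Promoter accessibility was read as ATAC counts in peaks within 1 kb of a start site, per 1000000 peak counts of the class (also given as CPM). A promoter peak was listed for 8 of the 9 members in Foxr2 p53LOF (not Neurod2), for 8 in Foxr2 alone replicate 1 (not Fezf2) and for 7 in Foxr2 alone replicate 2 (neither Fezf2 nor Neurod2). Among all 21630 genes searched, 69.6%, 67.7% and 67.2% had such a peak. The Neurod6 sequence printed above lay within a peak in each of the 3 lists, and the Neurod2 sequence within one in Foxr2 alone replicate 1.

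Between Slc17a7 and GABA neurons of Foxr2 alone, 4 of 8 member promoters were called more accessible in Slc17a7 neurons and 0 less, beside 5.42% and 3.30% of 14576 promoters. The Neurod6 promoter had 320 counts in Slc17a7 neurons against 17 in GABA neurons, a log2 ratio of 5.06 (4.07 to 6.25). The Neurod2 promoter was at 25.7 against 1.77 CPM, a log2 ratio of 3.86 (3.34 to 4.42). Emx1, at 14.4 against 2.25, had a log2 ratio of 2.68 (2.18 to 3.20), and Tbr1, at 7.87 against 2.38, one of 1.72 (1.19 to 2.28). These 4 genes were thus higher in Slc17a7 neurons in RNA and in promoter counts. Emx2 (0.83), Cux2 (0.10), Cux1 (-0.01) and Bcl11b (-0.51) stayed within 2-fold. Against the other GABA neurons alone, Emx2 was called (2.74, 1.14 to 5.05) and Tbr1 was not (0.47, -0.31 to 1.34).

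The Slc17a6 and GABA neurons of Foxr2 p53LOF differed less at promoters. The Neurod6 promoter was called higher in Slc17a6 neurons, at 4.24 against 1.09 CPM (log2 ratio 1.96, 0.25 to 4.33), and the Emx2 promoter lower, at 12.6 against 30.3 (-1.26). Over 14345 promoters, 1.05% were called higher and 0.767% lower. The other 6 promoters with a peak had log2 ratios between -0.53 (Bcl11b) and 0.11 (Fezf2). The Emx1 promoter was low, at 6.11 and 6.71 CPM, and its RNA was at 0 UMIs in both classes. Only 13.7% and 14.7% of genes with a promoter peak were at or below these promoter levels in the Slc17a6 and GABA neurons.

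**Figure D4:**
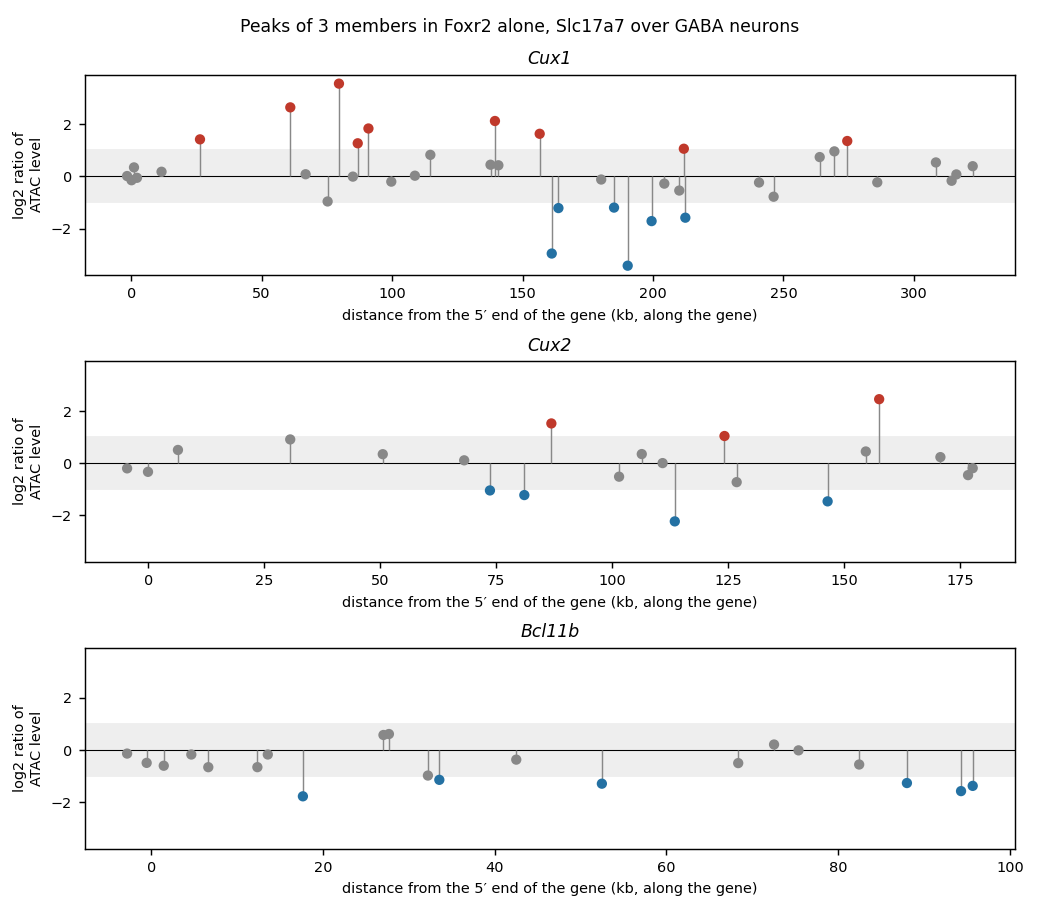
Log2 ratio of ATAC counts, Slc17a7 over GABA neurons in Foxr2 alone, for each peak of Cux1, Cux2 and Bcl11b by distance from the 5′ end of the gene in kb, with peaks at least 2-fold higher in red and lower in blue. Cux1 and Cux2 hold peaks of both directions and the called Bcl11b peaks are all lower.

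Peaks over the whole gene and 5 kb on each side were compared in the same way. In Foxr2 alone, 25.8% of 131158 peaks were called higher in Slc17a7 neurons and 18.4% lower. All tested peaks of Tbr1 (4), Emx1 (4), Fezf2 (2) and Neurod6 (2) were called higher, as were 2 of 3 of Neurod2, whereas none of the 3 of Emx2 was called in either direction. For Bcl11b, 6 of 21 peaks were lower and 0 higher. The long Cux genes held both, with 9 higher and 6 lower of 40 peaks for Cux1 and 3 higher and 4 lower of 21 for Cux2. For both Cux genes these shares were near or below those over all peaks. In Foxr2 p53LOF, 5.65% of 75976 peaks were called higher in Slc17a6 neurons and 3.47% lower. There 1 of 27 Cux1 peaks was higher and 3 lower, 1 of 17 Cux2 peaks was higher and 1 lower, and 2 of 12 Bcl11b peaks were lower. For Emx2, 2 of 4 peaks were lower, for Tbr1 1 of 3 was lower, and for Neurod6 1 of 2 was higher. A peak upstream of Neurod2 at chr11:98333990-98334867 was higher in Slc17a6 neurons (log2 ratio 1.72).

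The called Cux1 peaks farthest apart both lie in introns. The peak at chr5:136487378-136488302 was at 16.8 CPM in Slc17a7 and 1.43 in GABA neurons, a log2 ratio of 3.55 (2.96 to 4.19). The peak at chr5:136376732-136377640 was at 2.95 and 31.7, a log2 ratio of -3.42 (-3.99 to -2.91). Their central 300 bases are shown with the same span of the Fezf2 peak at chr14:12336220-12337189, downstream of the gene, which was at 10.4 and 0.794 CPM, a log2 ratio of 3.71. These are mm10 plus-strand sequences, with motif matches on either strand in capitals.
Cux1 peak higher in Slc17a7 neurons, chr5:136487691-136487990: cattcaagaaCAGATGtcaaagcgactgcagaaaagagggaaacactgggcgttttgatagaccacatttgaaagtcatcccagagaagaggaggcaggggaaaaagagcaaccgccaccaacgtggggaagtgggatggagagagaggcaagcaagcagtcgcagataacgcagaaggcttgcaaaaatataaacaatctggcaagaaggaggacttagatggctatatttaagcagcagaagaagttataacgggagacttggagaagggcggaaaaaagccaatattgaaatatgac
Cux1 peak lower in Slc17a7 neurons, chr5:136377037-136377336: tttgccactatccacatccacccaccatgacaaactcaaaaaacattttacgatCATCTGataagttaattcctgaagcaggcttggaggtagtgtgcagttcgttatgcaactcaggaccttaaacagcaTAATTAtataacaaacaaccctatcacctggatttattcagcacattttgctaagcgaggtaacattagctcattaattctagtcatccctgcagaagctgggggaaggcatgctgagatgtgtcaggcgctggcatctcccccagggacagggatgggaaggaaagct
Fezf2 peak higher in Slc17a7 neurons, chr14:12336555-12336854: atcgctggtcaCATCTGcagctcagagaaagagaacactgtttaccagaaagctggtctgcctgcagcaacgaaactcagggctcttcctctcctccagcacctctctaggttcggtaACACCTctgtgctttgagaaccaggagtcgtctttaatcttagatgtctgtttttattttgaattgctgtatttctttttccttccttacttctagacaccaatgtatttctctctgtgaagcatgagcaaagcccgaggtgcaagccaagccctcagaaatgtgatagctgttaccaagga
All of those shown hold the E-box CAGATG, which is in the central 300 bases of 26.6% of the 135165 peaks searched. The other Fezf2 peak, at chr14:12340784-12341556, was also called higher (log2 ratio 1.10), and its central 300 bases hold none of the motifs searched. The Cux1 peak lower in Slc17a7 neurons also holds TAATTA, a core recognised by homeodomain factors, found in 7.51% of peaks, and the Fezf2 peak holds AGGTGT, found in 14.7%. The ATCGAT core, known for Cux factors, was found in 0.729% of peaks and in none of these windows.

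Genes of the same pathways gave the wider setting. The lists hold none of the 9 members. In Slc17a7 over GABA neurons of Foxr2 alone, 8 of 15 tested upper-layer genes were higher and 3 lower, and 10 of 18 deep-layer genes were higher and 5 lower, beside the 11.0% and 10.3% of all genes given above. Rorb, a nuclear receptor of neurons that receive sensory input, stood at 84.9 against 3.99 CPM (log2 ratio 4.41). Foxp2, a factor of deep-layer and of striatal neurons, stood at 129 against 519 CPM (-2.01), the same direction as Bcl11b. Like Bcl11b, it was higher in striatal projection-like (597 CPM) than in other GABA neurons (73.7 CPM), and the latter level was below that of Slc17a7 neurons. Of 21 pallial genes tested, 10 were higher and 5 lower. Within Foxr2 p53LOF, 2 of 15 upper-layer genes were higher and 1 lower in Slc17a6 than in GABA neurons, 6 of 17 deep-layer genes were higher and 2 lower, 7 of 22 pallial genes were higher and 4 lower, and 12 of 24 diencephalon and midbrain genes were higher and 6 lower, beside 5.60% and 1.62% of all genes.

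In Slc17a6 neurons of Foxr2 p53LOF over Slc17a7 neurons of Foxr2 alone, 3 of 15 upper-layer genes were higher and 4 lower, and 2 of 18 deep-layer genes were higher and 6 lower, beside 17.8% and 21.5% of all genes. Of 22 pallial genes, 6 were higher and 9 lower. Of 19 tested genes of diencephalon and midbrain, 18 were higher and 0 lower, with a median log2 ratio of 5.43. The GABA neurons of Foxr2 p53LOF over Foxr2 alone gave a like count for this list, 12 of 14 higher and 1 lower, beside 17.3% and 27.4% of all genes. The median was 6.11, or 3.05 without striatal projection-like neurons. Between Slc17a7 and GABA neurons of Foxr2 alone, only 5 of the 26 genes of this list had enough UMIs to be tested. Most genes in both counts were therefore tested only because of their UMIs in Foxr2 p53LOF, which favours a call of higher. The list was also chosen with earlier results known, so the 2 counts cannot be ranked against the shares of all genes. Among the genes of this list higher in Slc17a6 neurons than in Slc17a7 neurons were Ebf3 and Lhx9. Ebf3 had 1528 UMIs against 1, and Lhx9, which is also on the pallial list, had 453 against 1. Within Foxr2 p53LOF, Lhx9 (453 UMIs against 5) and Sim1 (721 against 1) were higher in Slc17a6 than in GABA neurons, while Gata3 (log2 ratio -4.46) and Tal1 (-4.81), factors of midbrain GABA neurons, were lower.

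The genes whose level followed each member most closely were ranked by Pearson's r over 28 subclusters of at least 50 nuclei from both libraries, among 11257 genes, on a log scale. Subclusters of a library share its depth and background, so these are descriptions. The r of Tbr1 with Slc17a7, for example, was 0.90 over the 17 subclusters of Foxr2 alone and 0.14 over the 11 of Foxr2 p53LOF. Tbr1 ranked closest to Slc17a7 (0.90) and Neurod2 (0.89), Emx1 to Tbr1 (0.88) and Neurod2 (0.87), and Neurod2 to Tbr1 and Slc17a7 (0.83). Neurod6 was close to Fap (0.89) and Cwh43 (0.87), and Fezf2 to Wasl (0.85) and Vxn (0.82). Bcl11b was closest to Sra1 (0.89), Pmm1 (0.88) and Mdh1 (0.87). Cux2 was closest to Emsy (0.80) and Bicc1 (0.76), and the highest r for Cux1 was 0.60 (Trim17). Several of these were lower within Foxr2 p53LOF. Over its 11 subclusters, however, Fezf2 reached at most 0.430 CPM, Tbr1 2.23 CPM and Slc17a7 3.91 CPM. An r with these genes there rests on few counts, and whether the relations differ between the libraries was not tested. Neurod2 with Slc17a7 was at 0.94 within Foxr2 alone and -0.31 within Foxr2 p53LOF, and Cux2 with Bicc1 at 0.72 and -0.15. In the same order, Fezf2 was at 0.81 and 0.01 with Wasl and at 0.77 and 0.08 with Vxn. Bcl11b stayed positive in both libraries, with Sra1 at 0.60 and 0.73 and with Pmm1 at 0.48 and 0.75. For Emx2 the closest was Emx2os (0.76), its antisense neighbour at the same locus, and how reads were divided between them was not tested.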

How the data were processed

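The authors made the deposited counts with Cell Ranger ARC 2.0.0 on mm10 plus vector sequences, as UMIs per gene and ATAC counts per peak in each barcode, with cells and peaks called in each library on its own and no further normalization. Peak counts were even in 80.7% and 82.9% of nonzero entries, as for 2 cut ends per fragment, so intervals on ATAC used counts divided by 2. The genome annotation of the authors was not used here, and start sites came from GENCODE vM21 and sequences from RefSeq (GRCm38.p6), the build of mm10.

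Nuclei were kept with at least 400 genes, at least 400 fragments in peaks and at most 5% mitochondrial UMIs, below upper limits taken from the methods of the study. Scrublet in scanpy 1.11.5 (expected rate 8%) called 299 doublets in Foxr2 p53LOF (3.43%) and 529 in Foxr2 alone (5.97%), and these were left out. Both libraries were clustered without integration (2000 variable genes, 30 principal components, 20 neighbours, Leiden resolution 0.5, leidenalg 0.10.2). Neurons were then subclustered in each library without the 9 members. A subcluster was named dopamine at 100 CPM or more of Slc6a3, and otherwise cholinergic at 100 CPM or more of Slc5a7, whatever its other transmitter genes. The rest were named at 100 CPM or more of Slc17a7 or Slc17a6, or 200 CPM or more of Gad1, Gad2 and Slc32a1 together. They were mixed where several of these applied. Striatal projection-like subclusters had at least 3 of 12 markers at 2-fold or more, with a median log2 of at least 1 that exceeded that of interneuron markers. Class names were rebuilt here with thresholds chosen after seeing the data, and 293 nuclei stayed unnamed in Foxr2 p53LOF and 1 in Foxr2 alone. Within-class makeup can therefore differ from that of the study.

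UMIs were summed by class. Levels had exact Poisson, ratios conditional binomial and shares Clopper-Pearson intervals (scipy 1.17.1), all at 95%, with a floor of 3 counts over the class. The members and gene lists were chosen with earlier results of these data known. All 9 members were named by symbol, and other genes only from these lists, at their extremes, or as the closest genes by r. Some genes of the lists are not reported here.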

Additional observations from a re-analysis of the deposited data

How the results depend on the processing

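With 1 library of counts per genotype, no replicate could be left out. No paired analysis was possible because the groups share only replicate number 1 and no test was made. Of 274 member values recomputed under alternatives, 222 stayed within the interval of the reported value, 50 moved and 2 reversed. Both reversals came from leaving out the striatal projection-like GABA neurons, a setting added after the data were seen, and were Bcl11b (log2 ratio 0.40) and Cux2 (-0.55) in Slc17a7 over GABA neurons of Foxr2 alone. There 5 of the members were called instead of 8, and in GABA neurons of Foxr2 p53LOF over Foxr2 alone 1 instead of 7, with 4038 instead of 7379 of all genes. A minimum of 100 UMIs tests fewer genes. It gave 2118 instead of 3621 called genes in Slc17a7 over GABA neurons, 348 instead of 1125 in Slc17a6 over GABA neurons, 4688 instead of 7379 in GABA neurons between libraries and 4017 instead of 6686 between the excitatory classes. The called members went to 1 instead of 4 in Slc17a6 over GABA neurons and 2 instead of 7 in GABA neurons between libraries. In nuclei with no vector UMI, which are fewer, these were 1 and 3, with 754 and 6474 of all genes called. Without thinning, 9 instead of 5 members exceeded the immune-like share, and the nuclei then differ in depth. With limits on fragments applied to peak counts as deposited, Cux2 in Slc17a7 over GABA neurons was at 0.97, just under 2-fold, and the cause was not tested. Low counts limit the ratios of Tbr1, Emx1, Emx2 and Fezf2, which had at most 17 UMIs in any neuron class of Foxr2 p53LOF. The median depth of its Slc17a6 neurons, 9672 UMIs, was close to the 9682 of Slc17a7 neurons of Foxr2 alone.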
